A study of Mus musculus with 16 samples.

Results

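The 10 genes described here are components and direct outputs of the circadian clock: Arntl (which encodes BMAL1), Clock, Npas2, Per1, Per2, Per3, Cry1, Dbp, Ciart and Usp2. They were taken by gene symbol from the 19505 genes of the array, with the probe set of the highest mean where a gene had several, and 10 of 10 were found. Their signals were read in 16 liver biopsies of C57BL/6 mice, 8 from a NASH model and 8 controls. NASH, nonalcoholic steatohepatitis, is the inflamed form of fatty liver. The labels name the strain background, the tissue and the model. They do not say how the model was induced, how old the mice were, their sex or the hour of collection, and they list no drug for either group. The study's title concerns soluble guanylate cyclase and liver inflammation, and no purpose for the clock genes is stated. Nothing says that each sample came from its own mouse, so each p-value is set against sample-to-sample spread, which may be technical. The values are log2 signals of 1-colour arrays after quantile normalization, and each gene is compared only with itself across samples.

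The clock of liver cells is a feedback loop. BMAL1 pairs with CLOCK or with its close relative NPAS2, binds E-boxes in DNA and switches on the Per and Cry genes, whose proteins return to block the pair. The same pair drives Dbp, Ciart, Usp2 and the receptors of the REV-ERB family, Nr1d1 and Nr1d2, which in turn repress Arntl, Clock, Npas2, Nfil3 and Cry1. In the liver of mice kept in light and dark, the transcripts of Arntl, Npas2 and Clock therefore crest in another part of the day than those of Dbp, Per3, Ciart and Usp2.

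In NASH model livers the activators Arntl and Clock fell, and the repressors Per3 and Ciart and the outputs Dbp and Usp2 rose. Arntl was 3.46-fold lower and Clock 1.82-fold lower, while Ciart was 2.80-fold, Usp2 2.65-fold, Dbp 2.47-fold and Per3 2.28-fold higher. Of the 10 genes, 4 rose and 2 fell at an adjusted p under 0.05, against 13.2% of all 19505 genes that rose and 13.4% that fell. Npas2, Per1, Per2 and Cry1 did not pass. The groups overlapped in 10 of the 10 genes, whereas they did not overlap in 9.54% of all genes. The controls spread broadly, and controls 5 and 4 lay inside the NASH model range in more of the 10 genes than any other control. The hour of collection is not given, so its part in the group differences and in this spread was not tested. In the group differences it cannot be told apart from the part of the model. The tests were limma's moderated tests across all genes with Benjamini-Hochberg adjustment. Higher genes made up 49.6% of the 5196 calls over all genes, 39.2% with arrays centred on their medians and 78.9% with arrays centred on spike-in controls, which moved the median of all genes by 0.14 on the log2 scale. Those settings ended none of the 6 calls among the 10 genes.

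**Figure D1:**
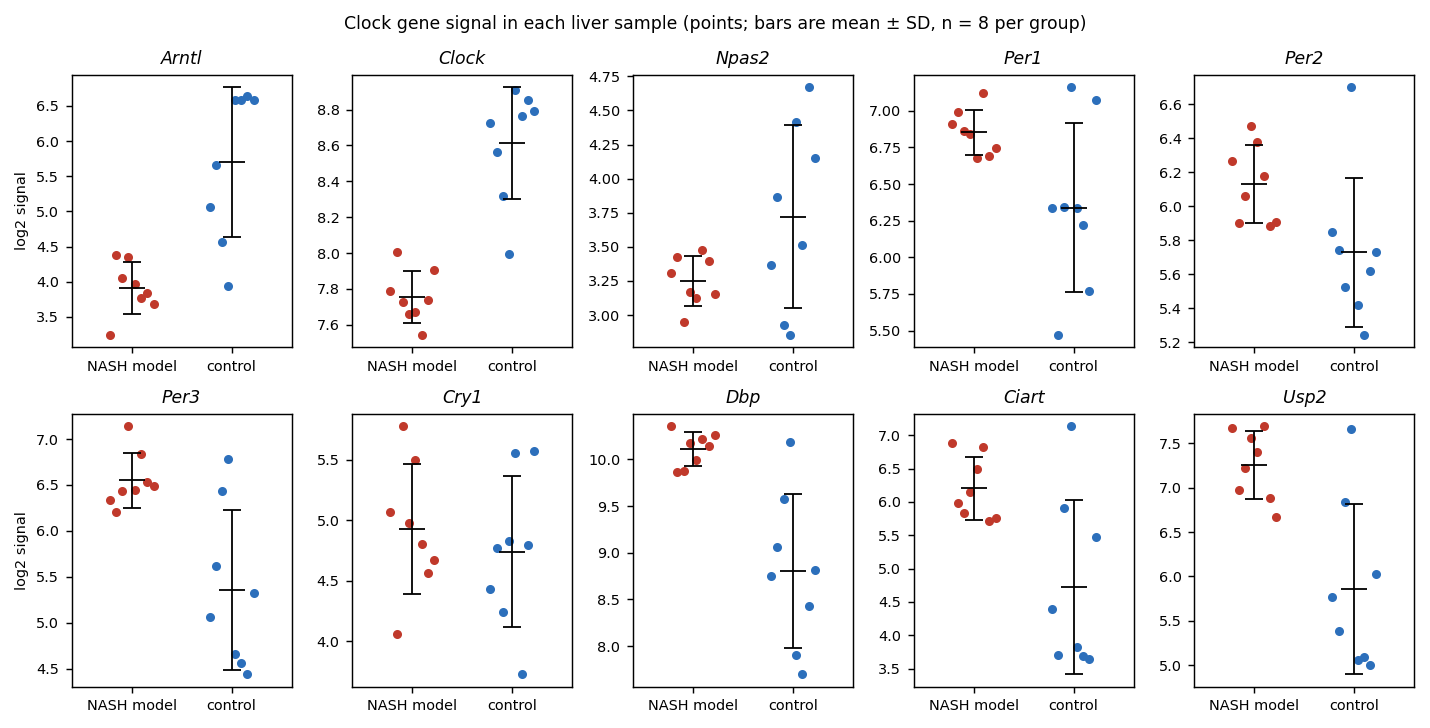
Log2 signal (vertical axes, each with its own range) of the 10 clock genes in the 8 NASH model samples (red) and the 8 controls (blue). Points are samples and bars are mean ± SD. Arntl and Clock lie lower and Per3, Dbp, Ciart and Usp2 higher in NASH model samples, and the controls spread more widely than the NASH model samples in all 10 genes.

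The activators come first. Samples within a group are taken in the order of their numbers, 1a, 1b, 2, 3, 4, 5, 6 and 7 in the NASH model group and 1, 3, 4, 5, 6, 7, 9 and 10 in the control group. Arntl had log2 signals of 3.24, 4.37, 4.05, 4.35, 3.97, 3.76, 3.84 and 3.69 in the NASH model samples, against 5.06, 5.67, 4.56, 3.94, 6.58, 6.58, 6.64 and 6.58 in the controls. Controls 6, 7, 9 and 10 lay within 6.58 to 6.64, the other 4 controls spread from 3.94 to 5.67, and only control 5 fell inside the NASH model range. The means were 3.91 ± 0.37 in NASH model and 5.70 ± 1.07 in control samples (SD, n = 8 each; log2 fold change -1.79 ± 0.35 SE, limma adjusted p = 5.85e-04). Clock, the partner of BMAL1, had 7.79, 8.00, 7.73, 7.66, 7.67, 7.54, 7.74 and 7.91 in the NASH model samples and 8.72, 8.56, 8.32, 8.00, 8.91, 8.76, 8.85 and 8.79 in the controls. All NASH model samples but 1b were below the lowest control, which was control 5. The means were 7.75 ± 0.15 in NASH model and 8.61 ± 0.31 in control samples (-0.86 ± 0.12 SE, limma adjusted p = 2.03e-05). Npas2, which can stand in for CLOCK, had 3.31, 3.43, 2.95, 3.17, 3.12, 3.48, 3.40 and 3.16 in the NASH model samples and 3.37, 3.87, 2.93, 2.85, 4.41, 3.51, 4.67 and 4.15 in the controls. Its signals were dim, and control 5 lay below 2.88, the 95th percentile of 1399 olfactory and vomeronasal receptor genes that serve here as a background level. The difference was -0.47 ± 0.22 SE (95% interval -0.93 to -0.01) and did not pass (limma adjusted p = 0.129). Without control 4 or without control 5 it passed, at -0.58 (limma adjusted p = 0.0463) and -0.59 (0.0385).

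The repressors of the loop followed. Per1, a Period gene that also answers to glucocorticoids and other acute signals, had 6.91, 6.99, 6.86, 6.84, 6.68, 7.12, 6.69 and 6.74 in the NASH model samples and 6.34, 5.47, 6.35, 7.16, 6.34, 6.22, 5.77 and 7.07 in the controls. The NASH model samples kept to a narrow band, and controls 5 and 10 reached or passed it while the other 6 controls were below it. Per1 differed by 0.52 ± 0.19 SE (95% interval 0.12 to 0.91; limma adjusted p = 0.0519). It passed without control 5 (0.63, limma adjusted p = 0.00973), without control 10 (0.62, limma adjusted p = 0.0146) and under several other settings, so its call turned on small choices. Per2 had 6.26, 5.90, 6.06, 6.47, 6.38, 6.18, 5.89 and 5.91 in the NASH model samples and 5.85, 5.74, 5.53, 6.70, 5.42, 5.24, 5.62 and 5.73 in the controls. Control 5 stood above every other sample, and the other 7 controls were below the lowest NASH model sample. The difference was 0.40 ± 0.16 SE (95% interval 0.06 to 0.74; limma adjusted p = 0.0758) with all samples and 0.54 without control 5 (limma adjusted p = 0.00188). Per3 had 6.33, 6.20, 6.44, 7.14, 6.44, 6.84, 6.53 and 6.49 in the NASH model samples and 5.06, 5.62, 6.44, 6.78, 4.66, 4.57, 4.44 and 5.33 in the controls. Controls 4 and 5 were inside the NASH model range and the other 6 were below it. Per3 rose by 1.19 ± 0.29 SE, with means of 6.55 ± 0.30 in NASH model and 5.36 ± 0.87 in control samples (SD, n = 8 each; limma adjusted p = 0.00365).

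Cry1, a cryptochrome that completes the repressor complex and whose transcript crests later in the day than those of the Per genes, had 5.07, 4.06, 5.78, 4.97, 5.50, 4.80, 4.56 and 4.68 in the NASH model samples and 4.43, 4.77, 4.24, 4.83, 5.56, 3.72, 4.80 and 5.58 in the controls. Of the 8 controls, 7 were inside the NASH model range. The difference was 0.19 ± 0.26 SE (95% interval -0.35 to 0.73; limma adjusted p = 0.662), so a change of up to 0.73 on the log2 scale was within its error. Ciart, which encodes the CHRONO repressor of BMAL1 and CLOCK, had 6.89, 5.98, 5.83, 6.15, 6.50, 6.83, 5.71 and 5.76 in the NASH model samples and 4.39, 3.71, 5.92, 7.14, 3.82, 3.69, 3.65 and 5.47 in the controls. Control 5 was above every NASH model sample, control 4 was inside their range, and controls 3, 6, 7 and 9 were lowest. Ciart rose by 1.48 ± 0.43 SE, with means of 6.21 ± 0.47 in NASH model and 4.72 ± 1.31 in control samples (SD, n = 8 each; limma adjusted p = 0.0129).

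Both outputs rose. Dbp, a transcription factor that binds D-boxes and whose transcript swings widely over the day in liver, had 10.35, 9.86, 9.87, 10.17, 9.99, 10.22, 10.14 and 10.26 in the NASH model samples and 8.75, 9.06, 9.57, 10.19, 7.90, 7.70, 8.43 and 8.82 in the controls. Control 5 alone reached the NASH model range, control 4 was next, and controls 6 and 7 were lowest. Dbp rose by 1.31 ± 0.26 SE, with means of 10.11 ± 0.18 in NASH model and 8.80 ± 0.82 in control samples (SD, n = 8 each; limma adjusted p = 8.05e-04). Usp2, a ubiquitin-specific protease, had 7.67, 6.98, 7.23, 7.56, 7.40, 7.69, 6.88 and 6.67 in the NASH model samples and 5.77, 5.39, 6.84, 7.66, 5.06, 5.09, 5.004 and 6.02 in the controls. Controls 4 and 5 were inside the NASH model range and controls 6, 7 and 9 were lowest. Usp2 rose by 1.41 ± 0.32 SE, with means of 7.26 ± 0.38 in NASH model and 5.85 ± 0.96 in control samples (SD, n = 8 each; limma adjusted p = 0.00233).

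**Figure D2:**
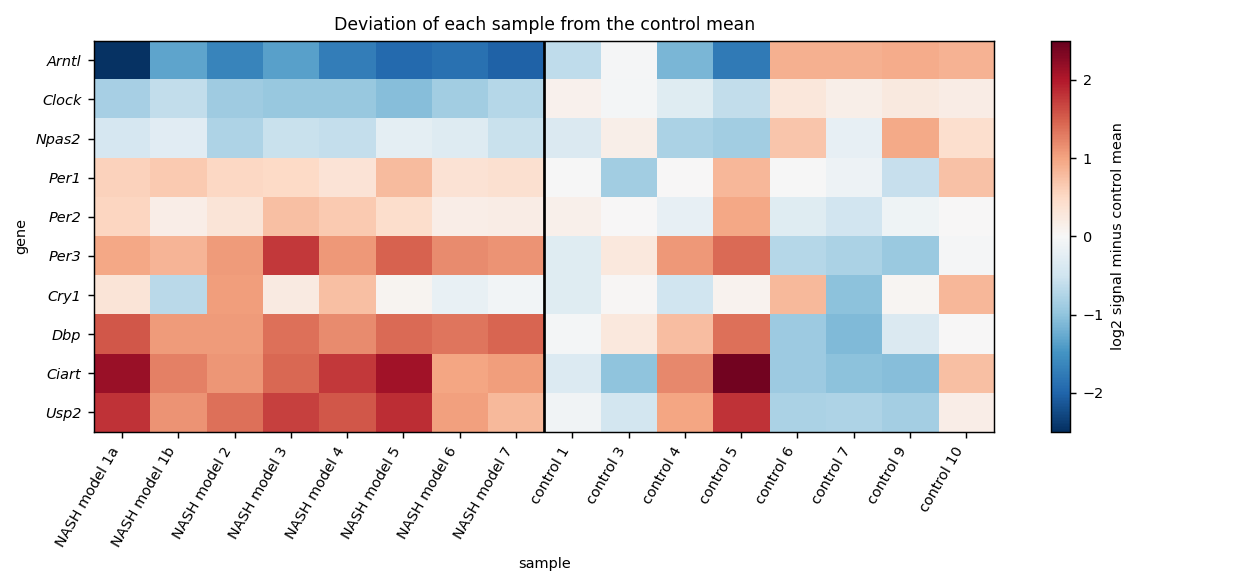
Deviation of each sample (columns, NASH model then control) from the control mean of each gene (rows), in log2 units, red above and blue below. Control 5 carries the colours of the NASH model columns in most rows, control 4 does so more weakly, and controls 6, 7 and 9 carry the opposite colours in Arntl, Per3, Dbp, Ciart and Usp2.

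The controls did not resemble the NASH model group to the same degree. Control 5 was inside the NASH model range in 6 of the 10 genes and control 4 in 4 of the 10. Controls 1 and 10 were inside it in 2 genes each, controls 3, 6 and 9 in 1 gene each and control 7 in 0. For Arntl, Dbp, Ciart and Usp2 the NASH model means and the value of control 5 differed by less than the range of the NASH model samples.

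The spread within groups differed in 1 direction. The SD was lower in NASH model than in control samples in 10 of the 10 genes, against 60.7% of all genes. In 8 of the 10 it was at most 0.5 of the control SD, a limit chosen after the values were seen, against 11.6% of all genes. The ratio of the NASH model SD to the control SD was smallest in Dbp, at 0.220, and largest in Cry1, at 0.861. Its median was 0.354 over the 10 genes and 0.877 over all genes. The difference between spreads was not tested.

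The correlations between genes were weak among the NASH model samples and strong among the controls. There are 45 pairs of the 10 genes in each group. The median absolute Pearson's r was 0.264 in the NASH model group and 0.750 in the control group. In the NASH model group 2 of the 45 pairs reached an absolute r of 0.8, against 2.02% of all gene pairs of the array in the same samples, or 2.61% among genes with a mean of at least 4. In the control group 17 of the 45 pairs did, against 1.82% of all gene pairs, or 2.04% among genes with a mean of at least 4. The absolute r was larger in the controls in 36 of the 45 pairs, and its sign was the same in both groups in 30. The difference between groups was not tested. The 10 genes also spread less in the NASH model samples, with a median SD ratio of 0.354. A narrow spread leaves r more open to measurement noise, so the contrast in r is not separate from that in spread. The part of the spread was not tested.

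**Figure D3:**
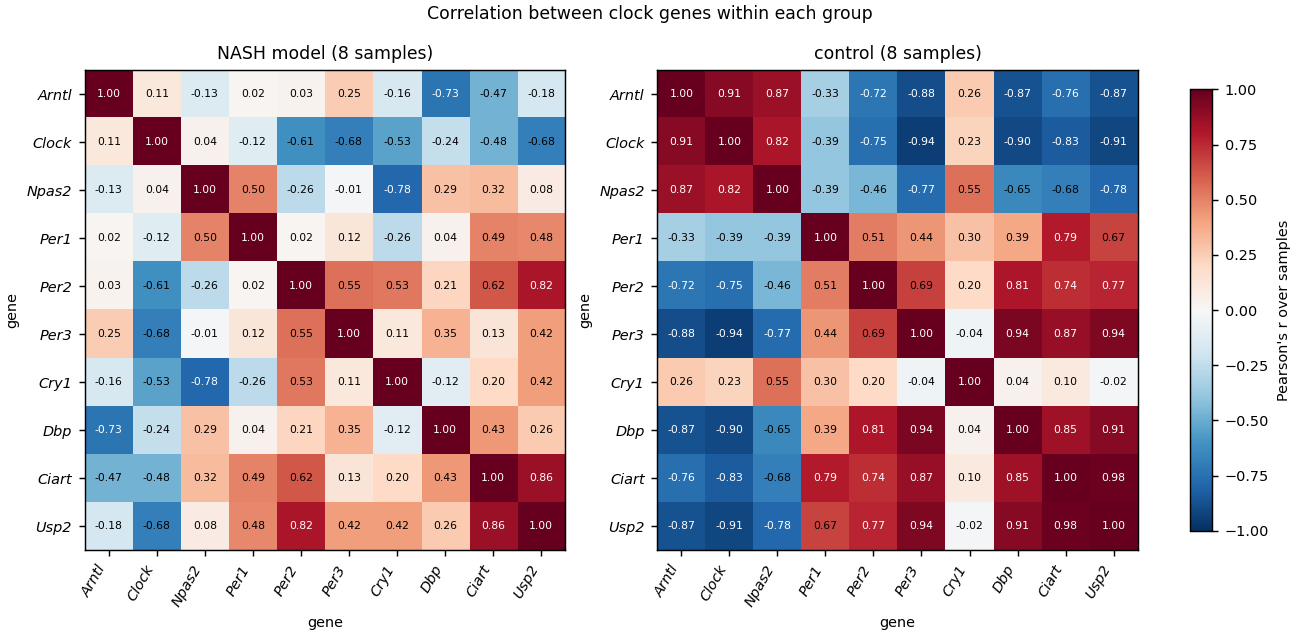
Pearson's r between the 10 clock genes over the 8 NASH model samples (left) and the 8 controls (right), red positive and blue negative. The control map splits into Arntl, Clock and Npas2 against Per3, Dbp, Ciart and Usp2, with Cry1 apart. In the NASH model map Per3, Dbp, Ciart and Usp2 are positive with each other, but Arntl, Clock and Npas2 do not group. There r was 0.107 for Arntl and Clock, -0.134 for Arntl and Npas2 and 0.045 for Clock and Npas2.

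Among the controls, the 3 pairs of Arntl, Clock and Npas2 were positively correlated, and Arntl was negatively correlated with Dbp. Npas2 gave r = -0.646 with Dbp and -0.783 with Usp2, which did not pass (adjusted p = 0.220 and 0.0859 from exact permutation tests). Arntl and Clock gave r = 0.910 (exact permutation p = 0.00203, adjusted p = 0.0261 over the 90 pairs of both groups; rho = 0.857, exact permutation p = 0.0107, adjusted p = 0.0689; n = 8). Without controls 4 and 5, the samples farthest from the median of Arntl, r was 0.648. Arntl and Dbp gave r = -0.874 (exact permutation p = 0.00265, adjusted p = 0.0299; rho = -0.857, exact permutation p = 0.0107, adjusted p = 0.0689) and r = -0.574 without controls 4 and 5. Since 4 of the controls had nearly the same Arntl signal, the relations of Arntl rest on the steps between these and the other 4. Neither set is large enough for a correlation of its own. The sets, controls 6, 7, 9 and 10 against 1, 3, 4 and 5, follow the sample numbers. Nfil3, Nampt and Cdkn1a, described below, split the controls in the same way. The permutation tests take all controls as exchangeable, and the part of this split in the pairs that passed was not tested.

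The closest pair was Ciart and Usp2, at r = 0.978 (exact permutation p = 2.23e-04, adjusted p = 0.0167; rho = 0.929, exact permutation p = 0.00223, adjusted p = 0.0587; n = 8), with r = 0.905 without controls 4 and 5. Per3 and Dbp gave r = 0.942 (exact permutation p = 3.72e-04, adjusted p = 0.0167; rho = 0.929, exact permutation p = 0.00223, adjusted p = 0.0587) and r = 0.820 without controls 4 and 5. Clock and Per3 gave r = -0.942 (exact permutation p = 7.19e-04, adjusted p = 0.0216; rho = -0.833, exact permutation p = 0.0154, adjusted p = 0.0814) and r = -0.766 without them. Cry1 stood apart, with an r between -0.04 and 0.55 to the other 9 genes.

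In all, 15 of the 45 control pairs passed after adjustment, 9 of them positive and 6 negative, and each kept its sign without the samples farthest from the median of its first gene. The count rests on few samples. By rank, with Spearman's rho, 0 pairs passed after adjustment (20 at an unadjusted exact permutation p under 0.05, lowest adjusted p 0.0587). The count was 0 without control 4, 0 without control 5, 2 without control 9, 3 without control 6, 8 without control 7 and 9 without control 1.

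In the NASH model group 0 of the 45 pairs passed by the exact permutation test after adjustment, with 4 at an unadjusted p under 0.05 by r and 2 by rho. The closest was again Ciart and Usp2, at r = 0.864 (exact permutation p = 0.00913, adjusted p = 0.0513; rho = 0.905, exact permutation p = 0.00456, adjusted p = 0.0587; n = 8). Without NASH model 1a and 5 its r was 0.744, and without NASH model 2 and 7, it was 0.887. Arntl and Dbp gave r = -0.729 (exact permutation p = 0.0383, adjusted p = 0.128; rho = -0.857, exact permutation p = 0.0107, adjusted p = 0.0689), which dropped to -0.359 without 1a and 1b. Sample 1a had the lowest Arntl and highest Dbp signal of the group, and 1b the highest Arntl and lowest Dbp. They share a number and may come from the same mouse. Per2 and Usp2 gave r = 0.816 (exact permutation p = 0.0195, adjusted p = 0.0859; rho = 0.714, exact permutation p = 0.0576, adjusted p = 0.192), and 0.949 without NASH model 3 and 4. Arntl and Clock gave r = 0.107 in this group (exact permutation p = 0.809, adjusted p = 0.91; rho = -0.05, exact permutation p = 0.935, adjusted p = 0.990) and -0.29 without 1a and 1b. Without NASH model 3, 2 pairs passed.

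E-boxes and D-boxes, the sites through which the loop acts, were sought in the 250 bases before the RefSeq starts of the genes (RefSeq, build GRCm38.p6), because 6 of the 10 genes differed between the groups and the controls varied together. The letters searched on both strands were CACGTG (E-box), TTATGNAA (D-box) and TAGGTCA (core of the element bound by ROR and REV-ERB receptors). Of the 10 genes, 9 had a window. An E-box was present in 3 genes, against 6.02% of all 32851 windows, and a D-box in 2, against 3.07%. The ROR element core was present in 0, against 2.23% of windows, and 5 genes held none of the motifs. Some genes had several windows, so the shares are not on equal terms. The windows with a match are shown 5′ to 3′ with the matches in capitals. No match overlapped another.
Ciart, chr3:95882229-95882478, minus strand: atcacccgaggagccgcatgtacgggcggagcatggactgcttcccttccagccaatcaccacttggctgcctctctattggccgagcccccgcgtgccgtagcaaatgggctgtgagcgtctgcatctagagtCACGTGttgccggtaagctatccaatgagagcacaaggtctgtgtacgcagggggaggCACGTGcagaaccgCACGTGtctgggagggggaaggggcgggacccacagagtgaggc
Per1, chr11:69098699-69098948, plus strand: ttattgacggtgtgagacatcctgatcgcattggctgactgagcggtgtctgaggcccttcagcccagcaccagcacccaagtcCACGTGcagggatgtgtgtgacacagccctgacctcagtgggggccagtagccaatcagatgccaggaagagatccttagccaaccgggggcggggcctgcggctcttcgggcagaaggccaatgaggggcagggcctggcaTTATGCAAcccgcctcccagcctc
Per3, chr4:151044666-151044915, minus strand: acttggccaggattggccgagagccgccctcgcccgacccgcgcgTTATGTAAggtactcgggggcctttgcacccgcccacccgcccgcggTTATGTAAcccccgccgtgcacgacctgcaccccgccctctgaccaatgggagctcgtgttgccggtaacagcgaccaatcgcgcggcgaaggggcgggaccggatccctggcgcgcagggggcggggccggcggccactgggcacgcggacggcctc
Cry1, chr10:85185055-85185304, minus strand: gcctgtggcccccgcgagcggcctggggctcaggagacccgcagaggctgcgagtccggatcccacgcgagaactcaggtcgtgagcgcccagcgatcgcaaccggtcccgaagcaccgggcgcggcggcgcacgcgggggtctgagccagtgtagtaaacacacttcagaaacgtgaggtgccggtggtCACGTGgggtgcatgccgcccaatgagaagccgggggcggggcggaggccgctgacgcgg
Ciart, which rose, has E-boxes that begin 116, 58 and 44 bases before its start. Per3, which rose, has D-boxes that begin 205 and 158 bases before it and no E-box in this window. Cry1, which showed no detectable difference, has an E-box that begins 60 bases before its start, and Per1 has an E-box at 166 and a D-box at 24 bases. Dbp, Usp2, Arntl, Clock and Npas2 had no match in their windows. Sites outside the 250 bases or with other letters were not sought, so a gene without a match may still hold such a site.

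A further 27 genes of the clock and its liver outputs were measured. In NASH model livers 10 of them rose and 8 fell, against 13.2% and 13.4% of all genes, with a median log2 fold change of 0.13 against -0.04 over all genes. The groups did not overlap in 7 of the 27, against 9.54% of all genes. The list was chosen with earlier results of these samples known. The number that fell was 5 without NASH model 2 and 7 together, without NASH model 3 or without control 5, and 4 with arrays centred on spike-in controls.

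The further parts of the loop went both ways. Of the REV-ERB receptors, Nr1d1 had 8.29, 8.20, 7.38, 7.62, 7.32, 8.00, 8.27 and 8.10 in the NASH model samples and 7.61, 7.99, 8.22, 8.98, 8.77, 8.78, 8.95 and 8.98 in the controls, and fell by 0.64 ± 0.21 SE on the log2 scale (limma adjusted p = 0.0293). Its call was lost without any 1 of controls 5, 6, 7, 9 and 10 or of NASH model 2, 3 and 4 (log2 fold changes from -0.60 to -0.55, limma adjusted p from 0.0529 to 0.0633). Nr1d2 rose by 0.40 ± 0.10 SE (limma adjusted p = 0.00662). The E-box repressors that compete with BMAL1 moved in opposite directions, with Bhlhe40 lower by a log2 fold change of -0.58 ± 0.09 SE (limma adjusted p = 9.71e-05) and Bhlhe41 higher by 0.85 ± 0.22 SE (limma adjusted p = 0.00588). Cry2 (-0.10 ± 0.12 SE), the activating receptors Rora (-0.30 ± 0.11 SE, limma adjusted p = 0.0561) and Rorb did not pass, and Rorb was below the background level in all 16 samples.

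Nfil3, the repressor that opposes DBP at D-boxes, had 5.39, 5.21, 5.90, 5.38, 5.89, 5.55, 5.35 and 5.34 in the NASH model samples and 6.82, 6.35, 6.16, 6.36, 7.24, 7.56, 7.13 and 7.28 in the controls. The groups did not overlap, and Nfil3 fell by 1.36 ± 0.19 SE (limma adjusted p = 1.40e-05). Hlf, a D-box activator related to DBP, had 6.02, 6.06, 5.74, 6.16, 6.41, 6.16, 5.96 and 5.80 in the NASH model samples and 7.08, 6.92, 7.01, 7.30, 7.34, 6.77, 6.71 and 7.10 in the controls, again without overlap. It fell by 0.99 ± 0.11 SE (limma adjusted p = 1.72e-06) while its relative Dbp rose, and controls 4 and 5, which were nearest to the NASH model samples in Dbp, were not so in Hlf. Tef, the remaining factor of that family, differed by -0.33 ± 0.17 SE (limma adjusted p = 0.167).

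Among the kinases and ubiquitin ligases that set the stability of PER and CRY proteins, 1 of 7 rose and 2 fell, against 13.2% and 13.4% of all genes. Csnk1e, casein kinase 1 epsilon, rose by 0.96 ± 0.15 SE (limma adjusted p = 7.34e-05), while its relative Csnk1d differed by -0.02 ± 0.09 SE. Fbxl21 fell by 0.49 ± 0.10 SE (limma adjusted p = 9.94e-04), but with arrays centred on spike-in controls its log2 fold change was -0.21 (limma adjusted p = 0.232). Btrc, a ligase subunit, fell by 0.33 ± 0.11 SE (limma adjusted p = 0.0292), a call lost in 11 of 27 alternatives.

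**Figure D4:**
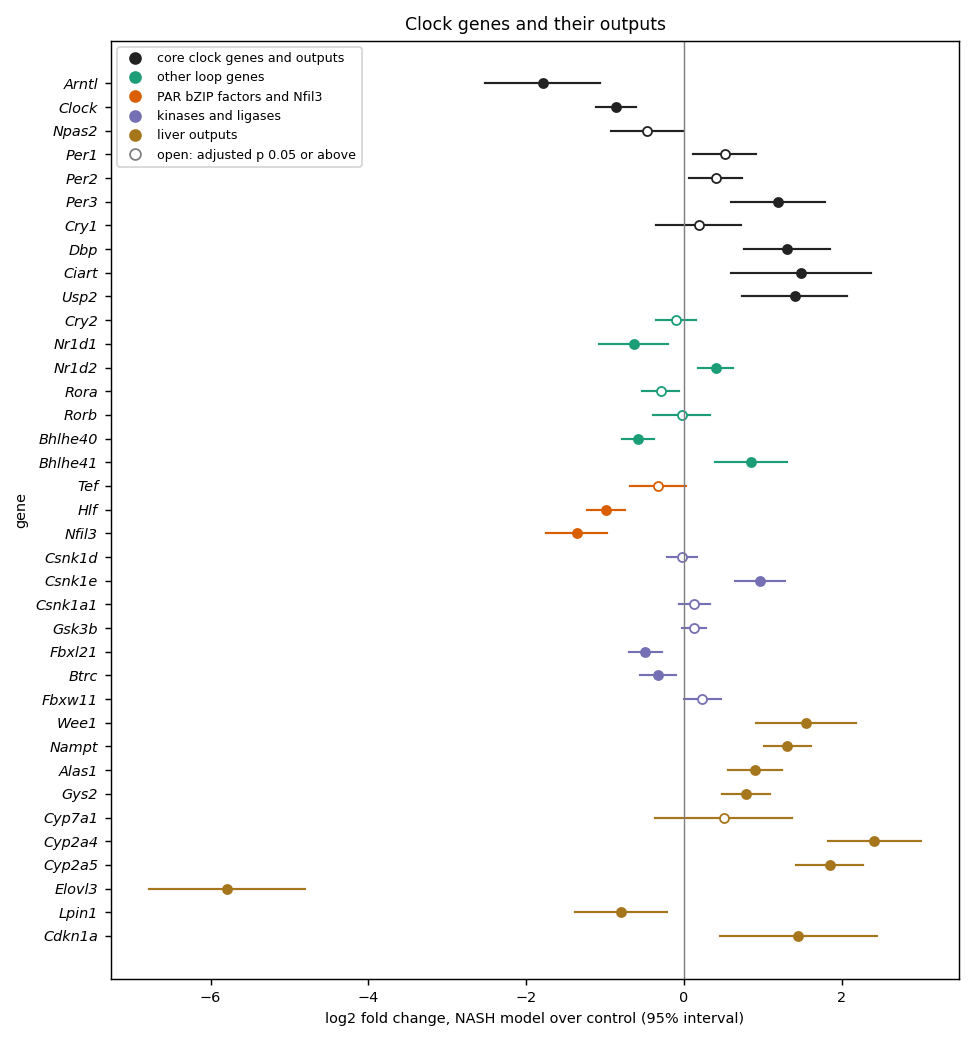
Log2 fold change (NASH model over control) of the 10 clock genes and outputs and of 27 other clock genes, with 95% intervals from limma. Filled points passed at an adjusted p under 0.05 and open points did not. Elovl3 lies far to the left, and the liver outputs lie mostly to the right.

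Liver outputs of the clock rose in 7 of 10 and fell in 2, against 13.2% and 13.4% of all genes. The cell cycle kinase Wee1, an E-box target, had 6.86, 6.38, 6.37, 6.56, 6.51, 6.75, 6.66 and 5.97 in the NASH model samples and 4.58, 5.13, 5.82, 6.38, 4.53, 3.24, 4.77 and 5.23 in the controls. Only control 5 reached the NASH model range, as in Dbp. Wee1 rose by 1.55 ± 0.30 SE (limma adjusted p = 6.31e-04). Nampt, the enzyme that salvages NAD, had 7.60, 7.51, 7.50, 7.69, 7.70, 7.41, 7.40 and 7.08 in the NASH model samples and 6.54, 6.43, 6.47, 6.47, 5.50, 5.87, 5.99 and 6.17 in the controls, without overlap. It rose by 1.31 ± 0.14 SE (limma adjusted p = 8.13e-07).

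The rate-limiting enzyme of haem synthesis in liver, Alas1, rose by 0.90 ± 0.16 SE (limma adjusted p = 2.68e-04), and the glycogen synthase Gys2 by 0.79 ± 0.15 SE (limma adjusted p = 4.12e-04). The DBP-responsive cytochromes P450 Cyp2a5 and Cyp2a4 rose by 1.85 ± 0.20 SE and 2.42 ± 0.28 SE (limma adjusted p = 1.06e-06 and 1.95e-06), although probe sets of these close relatives may share signal. Elovl3, a fatty acid elongase under REV-ERB control in liver, fell without overlap of the groups. Its size is uncertain, since NASH model 2 and 7 lay below the background level: the log2 fold change was -5.79 with them and -5.12 without them. Lpin1, a phosphatidate phosphatase, fell by 0.80 ± 0.28 SE (limma adjusted p = 0.0399), a call lost in 13 of 27 alternatives. Cyp7a1, the rate-limiting enzyme of bile acid synthesis, differed by 0.50 ± 0.42 SE (limma adjusted p = 0.426).

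The genes whose within-group deviations were most like those of Arntl over the 16 samples were Clpx (r = 0.866), Tor3a (0.863), Cyp4f17 (0.859), Tgoln1 (0.836), Insig2 (0.826) and Cdkn1a (0.820). Those most like Dbp were Wee1 (r = 0.893), Ank3 (0.857), Lss (0.843), Scai (0.835), Map2k6 (0.835) and Acvr1b (0.830). These are descriptions of 16 samples out of all genes with a mean of at least 4, and the samples share their arrays. Arntl and Dbp spread more in the controls (SD 1.07 and 0.82) than in the NASH model samples (0.37 and 0.18). The choice by r over all 16 samples therefore leaned on the controls. That r was higher in the controls for all 12 genes was thus largely set by the choice and is no finding. For Clpx r was 0.148 in the NASH model group and 0.968 in the control group, and for Acvr1b -0.02 and 0.942. For Insig2 they were 0.733 and 0.887 and for Map2k6 0.692 and 0.877. Between the groups, Clpx, Cyp4f17 and Insig2 fell as Arntl did, Wee1 and Ank3 rose as Dbp did, and Cdkn1a rose while Arntl fell. Clpx, a mitochondrial chaperone of haem synthesis, fell by 1.04 ± 0.18 SE, Insig2, a sterol sensor, fell by 1.58 ± 0.24 SE, Cyp4f17 fell by 0.79 ± 0.12 SE, Ank3 rose by 0.84 ± 0.25 SE, and Tor3a differed by 0.39 ± 0.18 SE (limma adjusted p = 0.115), but passed with spike-in centring (0.60, limma adjusted p = 0.0180). Tgoln1 differed by -0.32 ± 0.12 SE (limma adjusted p = 0.0506) and passed in 10 of 27 alternatives. Lss, an enzyme of cholesterol synthesis, differed by 0.03 ± 0.17 SE, Scai by 0.13 ± 0.12 SE, Map2k6 by -0.21 ± 0.27 SE and Acvr1b by 0.17 ± 0.18 SE. None of these passed, though Scai did with spike-in centring (0.41, limma adjusted p = 0.0485).

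Cdkn1a encodes the cell cycle inhibitor p21, and had 7.68, 7.92, 8.46, 7.02, 7.75, 7.32, 7.73 and 8.35 in the NASH model samples and 4.63, 5.70, 4.64, 4.95, 7.69, 7.58, 7.58 and 7.86 in the controls. Controls 6, 7, 9 and 10, the samples with high Arntl, lay within 7.58 to 7.86, and controls 1, 3, 4 and 5 within 4.63 to 5.70. In the NASH model samples Cdkn1a was high although Arntl was low. The mean difference was 1.45 ± 0.48 SE (limma adjusted p = 0.0285). The call was lost with the trend and robust options of limma (adjusted p = 0.0647), without NASH model 2 and 7 together (1.24, 0.112), without control 1 (1.21, limma adjusted p = 0.0595), control 3 (1.36, 0.0525), control 4 (1.21, 0.0577), control 5 (1.25, 0.0585), NASH model 2 (1.35, 0.0569) or NASH model 7 (1.37, 0.0552).

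**Figure D5:**
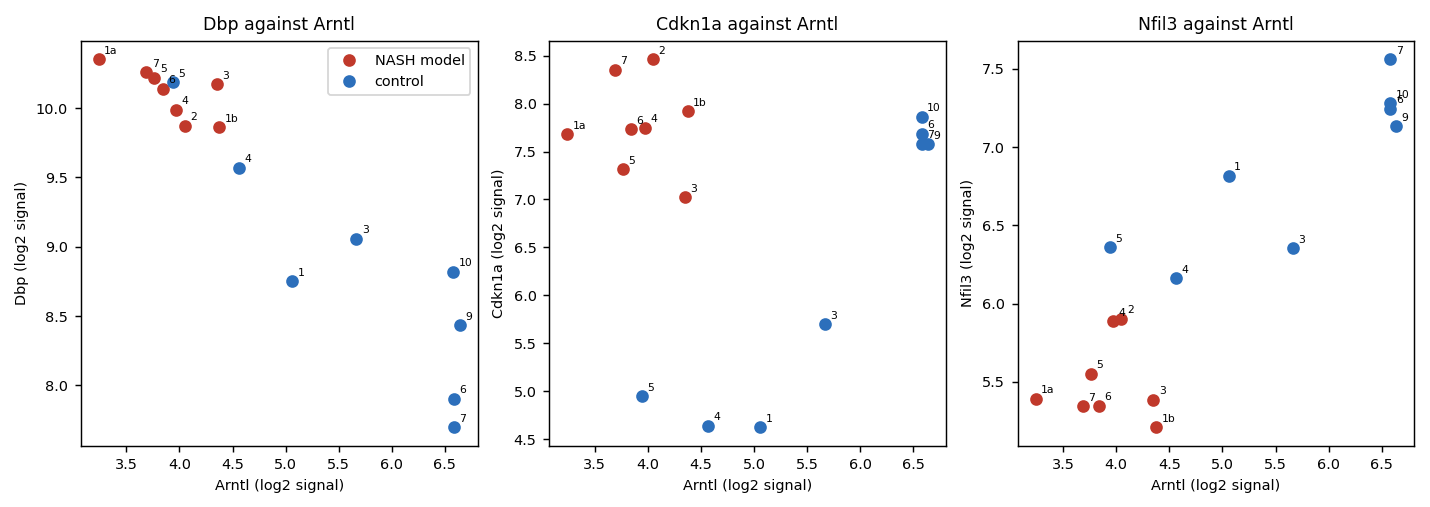
Log2 signals of Dbp, Cdkn1a and Nfil3 (vertical axes) against Arntl (horizontal axes), with 1 point per sample, NASH model in red and control in blue, labelled by sample number. Dbp runs down with Arntl through both groups, Cdkn1a is high in all NASH model samples and in the 4 controls with high Arntl, and the NASH model samples lie below all controls in Nfil3.

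Genes that answer to outside time cues of the liver clock were also listed. Of 7 glucocorticoid-responsive genes, 1 rose and 1 fell, a share near that over all genes (13.2% higher and 13.4% lower), with a median log2 fold change of 0.05. Sgk1 rose by 0.91 ± 0.19 SE (limma adjusted p = 0.00113). Dusp1 fell by 0.68 ± 0.21 SE (limma adjusted p = 0.0192), a call lost with arrays centred on spike-in controls (-0.55, limma adjusted p = 0.0829). Tsc22d3 differed by -0.55 ± 0.20 SE (limma adjusted p = 0.0519) and passed in 9 of 27 alternatives. Fkbp5 differed by 0.38 ± 0.29 SE, Tat by 0.05 ± 0.11 SE, Pck1 by 0.16 ± 0.08 SE and Zbtb16 by -0.46 ± 0.42 SE. Of 6 temperature-responsive genes, 1 rose and 2 fell, against the same shares over all genes. Rbm3, a cold-inducible RNA-binding protein, rose by 1.30 ± 0.15 SE (limma adjusted p = 2.00e-06), while Cirbp, its relative, differed by -0.20 ± 0.15 SE (limma adjusted p = 0.397). Of the listed heat shock genes, Hsph1 and Hsp90aa1 fell by 0.84 ± 0.14 SE and 0.75 ± 0.15 SE. Hspa1a and Hspa1b did not pass (0.07 ± 0.12 SE and 0.23 ± 0.20 SE, limma adjusted p = 0.729 and 0.436).

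Markers of other liver cell types differed between the groups, and their counts stand against 13.2% of all genes that rose and 13.4% that fell. Of 4 measured macrophage markers 4 rose, and their mean level ran from 8.59 to 8.98 on the log2 scale in NASH model and from 4.27 to 5.27 in control samples. Of 5 stellate cell and fibroblast markers 5 rose (6.45 to 7.38 in NASH model and 4.60 to 5.18 in control samples). Of 4 cholangiocyte markers 2 rose. Of 3 T and B cell markers Cd3e and Cd8a rose, and Cd79a did not pass (-0.01 ± 0.18 SE). Cd3e lay below the background level in 3 of 8 controls and Cd8a in 7. Of 4 endothelial markers 3 fell. Of 3 listed erythroid markers only 1 was measured, Alas2, which fell by 0.87 ± 0.15 SE (limma adjusted p = 1.96e-04). The hepatocyte markers were high in both groups: their mean level was 11.5 to 11.7 in NASH model and 11.7 to 11.9 in control samples, and Hnf4a fell. Alb, Ttr, Apoa1 and Cyp2e1 did not pass, but lay near the top of the signal scale, where a difference may not show. The part of these cell types in the clock differences was not tested, and in bulk samples fewer cells of a type and less RNA per cell cannot be told apart.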

How the data were processed

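Total RNA of 16 mouse liver biopsies was extracted with TRIzol, labelled with biotin and read on 1-colour arrays by the standard Affymetrix protocol, per the labels' protocols. The deposited values are log2 signals for 29129 probe sets, made by a method that the labels do not state. The values ran from 0.62 to 12.74, with array medians between 3.52 and 3.66. The number of arrays limits the precision, and no read depth applies. The platform annotation gave 1 gene symbol for 19572 probe sets and none for 9557, which were left out. For 55 genes with several probe sets, the brightest on average was kept, leaving 19505 genes. The values were quantile normalized, which moved no value by more than 0.16, and compared with limma 3.58.1 in R 4.3.3 (lmFit and eBayes, NASH model against control, 8 samples each, no covariate), with Benjamini-Hochberg adjustment over all genes and a threshold of 0.05. This procedure was tested on simulated data.

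Correlations within a group used exact permutation tests over the 8 samples, adjusted over 90 pairs. The background level of 2.88 is the 95th percentile of olfactory and vomeronasal receptor genes. The members and lists were chosen with earlier results of these data known. The text names all listed clock genes and, for Arntl and Dbp, the 6 genes with the closest within-group deviations among genes with a mean of at least 4. NASH model 1a and 1b share a number, and differed by as much (SD of differences 0.387) as the other 27 pairs of the group (0.340 to 0.466). They were counted as separate samples, although this does not show that they came from different mice. Averaging 1a and 1b was an alternative for the group comparison only, and the correlations were not repeated with it. Same-numbered NASH model and control samples did not deviate together (r from -0.02 to 0.06 over 6 shared numbers). Alternatives were the deposited values, other scalings, a filter on dim genes, other limma options, array weights, the mean of all probe sets, a replicate block, 1a and 1b averaged, and samples left out, among them NASH model 2 and 7 together, which an earlier analysis found apart from the rest. Centring on spike-in controls was added after seeing the data.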

Additional observations from a re-analysis of the deposited data

Results flagged for a closer look

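In 5 of 74 groups of 8 values, the highest or lowest sample stood far from the other 7, and chance gives about 1 in 20. Control 5 was flagged as far above the other controls in 4 genes. It was also the highest control, without a flag, in other genes, among them Per3, Dbp, Ciart and Usp2. It had a log2 signal of 6.70 for Per2, where the next control had 5.85, and 8.24 for Gys2, where the next had 7.66. It had 8.02 for Cyp2a4, where the next had 6.91, and 10.28 for Cyp2a5, where the next had 9.12. NASH model 2 had the lowest signal of its group for Cyp7a1, 6.40, where the next sample had 8.30.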

How the results depend on the processing

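The calls of Arntl, Clock, Per3, Dbp, Ciart and Usp2 held in all 27 alternatives and Cry1 passed in 0 of 27; no result turned its sign past the threshold. Per1 passed (limma) with the deposited values (0.54), cyclic loess (0.55), spike-in centring (0.68), the dimmest 40% of genes left out (0.52, fewer genes tested), array weights (0.54) and the replicate block (0.53), and ran from 0.39 to 0.63 with 1 sample left out. Per2 passed with the deposited values (0.48), cyclic loess (0.45), spike-in centring (0.62) and the trend and robust options (0.40), and ran from 0.33 to 0.54 with 1 sample left out. Npas2 ran from -0.59 to -0.33 with 1 sample left out. The causes were not tested. Between 6 and 9 of the 10 genes passed across the alternatives, 9 without control 5. The replicate block used the sample numbers, which are not known to pair the samples. It called 3924 genes against 5196, and lost Nr1d1 (-0.41, limma adjusted p = 0.181), Nr1d2 (0.31, 0.0737), Btrc, Lpin1 and Ank3. Control pairs past adjustment numbered 0 by Spearman's rho and 0 to 14 with 1 control left out, and NASH model pairs 0 to 2. Calls were lost in 12 of 27 alternatives for Nr1d1, 11 for Btrc, 13 for Lpin1 and 8 for Cdkn1a. Of all calls, higher genes made up 39.2% with median centring (2355 higher against 3646 lower), 78.9% (3630 higher, 973 lower) with spike-in centring and 55.4% with the deposited values. Npas2 and Rorb lay near or below the background level, where differences are compressed.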
